A study of Mus musculus with 4 samples.

Results

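Chondrocytes are the cells that make and maintain cartilage. In the mouse vertebral column they sit in the cartilage endplate, which caps each vertebral body, in the annulus of the intervertebral disc and, as hypertrophic cells, at the border where cartilage gives way to bone. Their matrix is built from a type II collagen network, to which collagens IX and XI are added, and from the large proteoglycan aggrecan, while small leucine-rich proteoglycans such as decorin and fibromodulin bind the collagen fibrils and the lubricant proteoglycan 4 coats cartilage surfaces. Nf1 encodes neurofibromin, a GTPase-activating protein that switches RAS off, so that cells without it can carry excess RAS and ERK signalling.

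The cells described here are chondrocytes of 2 single-cell libraries from mutant mice, one from animals aged 3 months and one from animals aged 12 to 16 months. Mutant mice were Prss56Cre/Cre;R26tdTom/tdTom;Nf1fl/fl. Cre from the Prss56 locus, which is active in embryonic boundary cap cells, recombines Nf1 and switches on the red reporter tdTom in those cells and in what descends from them. Control mice, Prss56Cre/+;R26tdTom/tdTom;Nf1+/+, had 1 library at each of the same ages. The controls thus carried 1 Cre allele where the mutants carried 2. The T11 to L2 vertebrae were digested, dead cells and cells positive for CD11b, CD31 or CD45 were discarded, tdTom-positive cells were sorted, and their RNA was counted at the 3′ end in droplets as unique molecular identifiers (UMIs). The number of mice behind a library is not stated in the sources used here.

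Cells needed over 750 UMIs from over 500 genes, with mitochondrial UMIs under 7%. A cell was taken as a chondrocyte with 1 or more UMIs of Sox9, the transcription factor that sets up the chondrocyte state, and 3 or more of Acan, which encodes aggrecan. This gave 377 chondrocytes at 3 months and 258 at 12 to 16 months, 635 in all, out of 905 kept cells of both mutant libraries and 1757 of all 4 libraries. The Acan minimum fell where few cells lie: 3 cells had 2 Acan UMIs and none had 3 at 3 months, against 7 and 4 at 12 to 16 months. The control libraries held 562 and 89 chondrocytes. With 1 library for each genotype and age there is no replicate and no test of an age difference. UMIs were summed over the chondrocytes of a library and given as CPM, counts scaled to a library total of 1000000, and the 95% intervals in parentheses cover counting error only, not differences between mice. A gene was called higher or lower when its CPM differed at least 2-fold between the ages with a counting interval beyond 1, among genes with 50 or more UMIs in both libraries together.

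The label held for these cells. Genes that the rule did not use read as cartilage: Col2a1, the main collagen of cartilage, was at 4712 CPM in 351 cells at 3 months and at 4746 CPM in 216 cells at 12 to 16 months, and Hapln1, which links aggrecan to hyaluronan, was at 2815 and 2170 CPM. Comp, a matrix protein of cartilage and tendon, stood at 3623 and 6340 CPM, and Snorc, a chondrocyte membrane proteoglycan, at 3994 and 5694 CPM. Not every cartilage gene held its level. Col9a1 and, in part of the cells, Cnmd were lower at the older age, as given below. Markers of other cells were low. The summed level of 9 immune genes was 6.16 CPM at 3 months and 10.8 CPM at 12 to 16 months, with Ptprc, the pan-leukocyte marker, at 0 in both. The 4 endothelial genes summed to 4.11 and 2.79 CPM, the 4 mural genes to 7.19 and 9.43, the 4 hemoglobin genes to 4.62 and 1.40, the 5 Schwann and neural genes to 14.4 and 17.5, the 4 skeletal muscle genes to 2.91 and 4.89, and the 5 marrow stroma genes to 22.6 and 38.1. The 7 osteoblast genes summed to 1302 and 588 CPM, most of it Ibsp, which hypertrophic chondrocytes also make, while Col1a1, the main bone collagen, had 10 and 36 UMIs.

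The libraries differed in ways that bear on every ratio. Chondrocytes held 5844950 UMIs at 3 months and 2862639 at 12 to 16 months, with a median of 13677 against 8670.5 UMIs per cell, and no cell barcode was shared between libraries. The 3-month mutant library held more of a group of 7 genes led by Gm42418, a transcript from the ribosomal RNA repeat: they took 3.60% of its chondrocyte UMIs against 0.473% at 12 to 16 months, 1.05% in the 3-month and 1.90% in the 12-to-16-month control library. Malat1, a nuclear RNA, took 2.20% and 1.46% of mutant UMIs. Sex differed too, as 3 chondrocytes held a Y-linked UMI at 3 months against 24 at 12 to 16 months, and 4 against 53 had no UMI of Xist, the RNA of the inactive X chromosome. Sequencing run, mice and age cannot be told apart. Nf1 itself read 160 CPM at 3 months and 124 CPM at 12 to 16 months, beside 134 and 145 CPM in control, but the reads come from the 3′ end and whether they lie in the deleted part is not known, so they check nothing about the deletion. The tdTomato transcript had 27 and 13 UMIs, and Prss56 had 1 and 0.

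The makeup of the mutant chondrocytes differed between the ages. Cells with 3 or more UMIs of Zfp804b and Dab1 together, called endplate cells here after the markers chosen for the cartilage endplate, made up 37.7% (32.8 to 42.8) of mutant chondrocytes at 3 months, 142 cells, and 14.7% (10.6 to 19.7) at 12 to 16 months, 38 cells. The intervals did not overlap, but they cover the sampling of cells within a library and not differences between mice. Few cells lay near the limit: 3 and 7 had a sum of 2, and 6 and 5 a sum of 3, while 225 and 205 had 0. Cells with 3 or more UMIs of Ihh, Panx3, Prkg2 and Col10a1 together, genes of hypertrophic chondrocytes, were 33.7% (28.9 to 38.7), 127 cells, and 31.0% (25.4 to 37.0), 80 cells. Here the intervals overlapped. In all, 23.9% of chondrocytes met both rules at 3 months and 12.0% at 12 to 16 months, and 52.5% against 66.3% met neither. Both rules count raw UMIs and so depend on depth. With each cell thinned to 2000 UMIs before the rules were applied, endplate cells were 15.9% (11.9 to 20.6), 46 of 290, at 3 months and 2.09% (0.573 to 5.28), 4 of 191, at 12 to 16 months, and hypertrophic cells 15.9% and 12.0%. The order of the ages was thus the same at equal depth. In control chondrocytes the endplate share was 5.34% (3.63 to 7.53) at 3 months and 12.4% (6.33 to 21.0) at 12 to 16 months, so that the control libraries ran in the other order by their point values, with intervals that overlapped. Thinned, 3 of 350 control cells met the endplate rule at 3 months and 0 of 56 at 12 to 16 months, too few to order. Chondrocytes were 77.9% (73.9 to 81.5) of kept mutant cells at 3 months and 61.3% (56.4 to 66.0) at 12 to 16 months, a share that the sort and the digestion can also set.

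**Figure D1:**
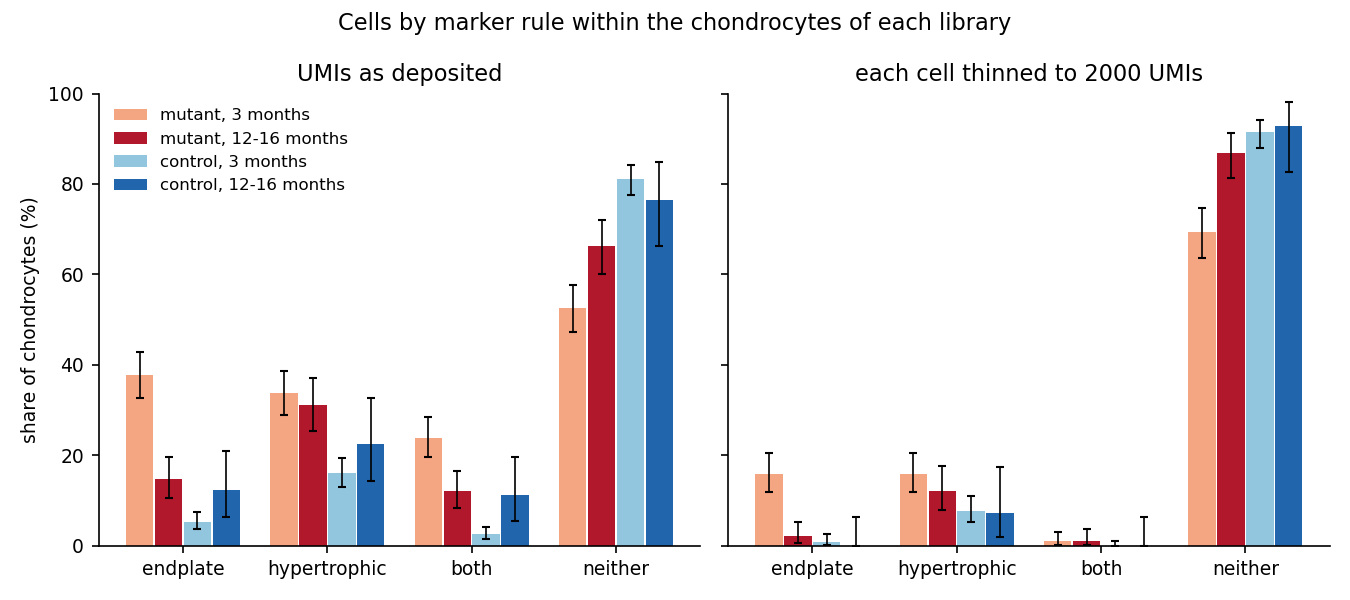
Share of chondrocytes (percent) that met the endplate rule, the hypertrophic rule, both or neither in the 4 libraries, at the deposited depth (left) and with each cell thinned to 2000 UMIs (right); bars are shares and lines exact 95% binomial intervals. The endplate bar of the mutant 3-month library, 37.7%, stands above that of the mutant 12-to-16-month library, 14.7%, and does so after thinning too, 15.9% against 2.09%.

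Because of this difference in makeup, ratios are given for all chondrocytes and, for many results, for the 198 and 171 chondrocytes that met neither rule, called the remaining chondrocytes. Disc marker genes differed within this set too. Prg4, Smoc2 and Cilp2 summed to 23946 and 31994 CPM, Sfrp5 and Adamtsl2 to 180 and 265, and Chrdl2 and Meox2 to 117 and 133. The rules count raw UMIs and the older cells here were shallower, with medians of 10405.5 and 6942 UMIs. Cells with few marker UMIs can thus stay in this set, and the part of both in its ratios was not tested. Over all chondrocytes 343 of 10538 genes (3.25%) were higher at 12 to 16 months and 496 (4.71%) were lower. In the remaining chondrocytes 172 of 7549 genes (2.28%) were higher and 187 (2.48%) lower. The counts of gene lists below are to be read beside these shares of all genes. The median log2 ratio over all genes was -0.04 in both sets. Of the 343 higher genes 94 were also called higher in the remaining chondrocytes, 27.4% of the first list and 54.7% of the second. Of the 496 lower genes 77 were called lower in both, 15.5% and 41.2% of the lists.

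The collagen network of cartilage read alike at both ages, with type IX collagen the exception. Of 8 cartilage collagen genes none was called higher and 1 lower, with a median log2 ratio of -0.04. The summed level of the list was 11832 and 10407 CPM over all chondrocytes and 4053 and 3693 CPM in the remaining ones. Col2a1 had a ratio of 1.01 (0.987 to 1.03) over all chondrocytes and 0.967 (0.918 to 1.02) in the remaining ones. Col9a1, which encodes a chain of the collagen on the surface of type II fibrils, was at 634 CPM in 191 cells at 3 months and at 213 CPM in 65 cells at 12 to 16 months, 2.98-fold lower (2.73 to 3.25), and was 4.18-fold lower (2.57 to 7.16) in the remaining chondrocytes. Its partner chains were under 2-fold: Col9a2 went from 1451 to 1026 CPM. Among 9 fibrous and microfibrillar collagens 1 was called higher, Col3a1, with 56.9% of its older UMIs from 1 cell, and 1 lower, Col12a1, which decorates collagen I fibrils, at 234 and 99.9 CPM. In control chondrocytes Col9a1 was at 186 and 193 CPM, so the 3-month mutant value stood above the other 3 libraries.

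Decorin, fibromodulin and fibronectin were higher in the older mutant chondrocytes. Of 15 proteoglycans 3 were called higher and 1 lower over all chondrocytes, and 4 higher and none lower in the remaining ones. Their medians were 0.37 and 0.38. Dcn, decorin, was at 2578 CPM in 247 cells at 3 months and 11076 CPM in 194 cells at 12 to 16 months, 4.30-fold higher (4.21 to 4.38), with 3.91% of the older UMIs from the top cell. In the remaining chondrocytes it was at 5428 and 17934 CPM. Fmod, fibromodulin, was at 293 and 603 CPM, 2.06-fold (1.92 to 2.20), and Aspn, asporin, a decorin relative that binds TGF-beta, at 44.0 and 147 CPM. Lum and Epyc were called in the remaining chondrocytes only. There Lum, lumican, went from 16.6 to 128 CPM, and Epyc, epiphycan, from 6.13 to 84.3 CPM in 12 cells, whereas over all chondrocytes their ratios were 0.957 (0.840 to 1.09) and 1.29 (1.11 to 1.5). Omd, osteomodulin, was the member called lower, at 623 and 291 CPM. Prg4, proteoglycan 4, fell just short of the call at 9550 and 18940 CPM, 1.98-fold (1.96 to 2.01), and its ratio was 1.33 (1.31 to 1.34) in the remaining chondrocytes.

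Of 22 cartilage glycoproteins 6 were called higher and 3 lower, with a median of 0.37. Fn1, fibronectin, was at 2882 CPM in 368 cells at 3 months and at 10490 CPM in 251 cells at 12 to 16 months, 3.64-fold higher (3.57 to 3.71), and 2.75-fold higher (2.67 to 2.83) in the remaining chondrocytes. Smoc2, a calcium-binding matricellular protein, was at 171 and 452 CPM, and Matn3, matrilin 3, a bridging protein of cartilage matrix, at 258 and 640 CPM. Clu, clusterin, an extracellular chaperone, was at 873 and 1791 CPM. These 3 were under 2-fold in the remaining chondrocytes, where Fn1 was the only member called higher. Thbs1, thrombospondin 1, which can activate latent TGF-beta, was lower, at 1404 CPM in 299 cells and 468 CPM in 124 cells, 3.00-fold (2.83 to 3.18), with 20.0% of the older UMIs from 1 cell. Thbs1 was not called in the remaining chondrocytes, where Cnmd was the only 1 of 18 counted members called lower. Cnmd, chondromodulin, an inhibitor of vessel growth made by avascular cartilage, was at 1234 CPM in 183 of the remaining chondrocytes at 3 months and at 357 CPM in 93 at 12 to 16 months, 3.46-fold lower (3.14 to 3.81). After thinning, 77.7% (71.2 to 83.3) of the remaining chondrocytes held a Cnmd UMI at 3 months and 33.7% (26.6 to 41.5) at 12 to 16 months. None of 42 and 28 immune cells, kept cells with a Ptprc UMI and no Sox9 or Acan UMI, held one, which allows shares of up to 7.14% and 10.7%. Median depths were 10405.5 and 6942 UMIs in the remaining chondrocytes and 12018.5 and 7891 in the immune cells.

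**Figure D2:**
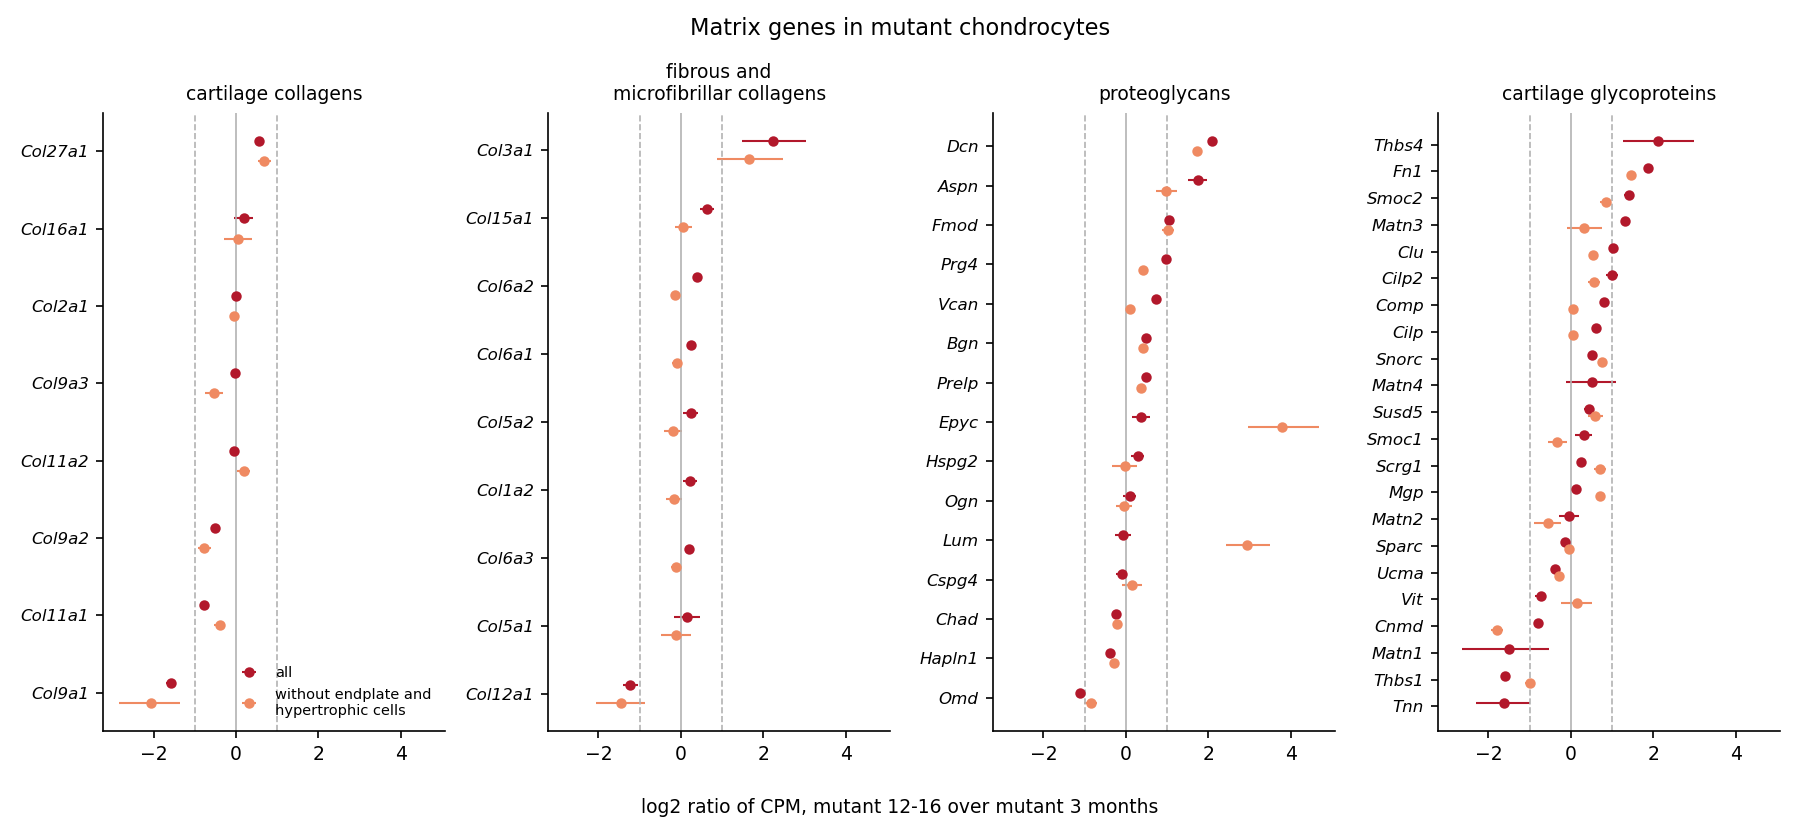
Log2 ratio of CPM, mutant 12 to 16 months over mutant 3 months, for cartilage collagens, fibrous and microfibrillar collagens, proteoglycans and cartilage glycoproteins; dark points are all chondrocytes, light points the chondrocytes without endplate and hypertrophic cells, lines 95% counting intervals and dashed lines 2-fold. Dcn (2.10), Fn1 (1.86) and Fmod (1.04) lie beyond 2-fold to the right in both sets, and Col9a1 (-1.57) to the left.

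Some enzymes that build glycosaminoglycan chains were higher over all chondrocytes. Of 23 glycosaminoglycan synthesis genes 4 were higher, 17.4% beside 3.25% of all genes, and none was lower, while the median was -0.01. They were B4galt7 and Chpf2, which build the linker and the chondroitin chain, and the sulfotransferases Chst3, at 21.2 and 58.3 CPM, and Chst15. In the remaining chondrocytes 2 of 21 were higher and 1 lower, with a median of -0.06. The summed level of the list there was 3357 and 2935 CPM. Of 34 genes for collagen folding and secretion 2 were higher, Loxl3, a collagen cross-linking oxidase, at 44.7 and 102 CPM, and Pcolce, which speeds procollagen cleavage, at 15.6 and 34.9 CPM. None was lower, and the median was 0.26. Of 26 chondrocyte transcription factors 1 was higher, Pax9, and 1 lower, Foxo3, at 119 and 36.3 CPM, with a median of 0.02. Each is 3.85% of the list, near the shares of all genes, 3.25% higher and 4.71% lower.

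Among 24 matrix proteases and their inhibitors 5 were higher and 4 lower, with a median of 0.15. Those called higher in both sets were not proteases of collagen or aggrecan. Serpina3n, a secreted serine protease inhibitor, led them. Timp1, an inhibitor of metalloproteinases, was at 19.3 and 149 CPM, 7.70-fold higher (6.24 to 9.56), but 44.8% of its older UMIs came from 1 cell. Adamtsl2, a matrix protein related to the ADAMTS proteases without a protease domain, was at 9.58 CPM in 30 cells and 38.4 CPM in 46 cells. Timp4, another inhibitor, was lower, at 174 and 84.2 CPM, 2.06-fold (1.79 to 2.39). Timp3, which binds to matrix and inhibits aggrecanases, was called only in the remaining chondrocytes, at 442 CPM in 110 cells and 1539 CPM in 138 cells, 3.48-fold higher (3.23 to 3.76). Mmp2, a gelatinase, was at 80.6 CPM in 127 cells and 11.9 CPM in 18 cells over all chondrocytes, 6.78-fold lower (4.79 to 9.91). In the remaining chondrocytes no counted gene of this list had a log2 ratio below -1.33. Adamts5, the main aggrecanase of mouse cartilage, was 2.09-fold lower (1.51 to 2.96) in the remaining chondrocytes, at 72.7 and 34.7 CPM. Mmp13, the collagenase of hypertrophic cartilage, had 20 UMIs at 3 months and 89 at 12 to 16 months, 57.3% of the latter from 1 cell.

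At 12 to 16 months Serpina3n, C4b, C3, Lcn2 and Chil1 were higher. These 5 secreted proteins were grouped here after their values were seen, so the grouping is a description and has no list of its own. Serpina3n (chr12:104406729-104414329, mm10) was at 34.4 CPM (29.8 to 39.5) in 58 cells at 3 months and at 402 CPM (380 to 426) in 114 cells at 12 to 16 months, 11.7-fold higher (10.1 to 13.7). C4b, complement component 4, was at 52.7 CPM in 101 cells and 360 CPM in 146 cells, 6.83-fold higher (6.01 to 7.78). C3, the central complement component, was at 25.8 CPM in 45 cells and 118 CPM in 64 cells, 4.57-fold higher (3.76 to 5.57). All 3 were spread over cells, with 8.33%, 4.66% and 17.2% of the older UMIs from the top cell. Lcn2, lipocalin 2, an iron-siderophore binder, was at 66.7 and 180 CPM, 2.7-fold higher (2.36 to 3.08). Chil1, the secreted chitinase-like protein YKL-40, was at 121 CPM in 146 cells and 631 CPM in 127 cells, 5.23-fold higher (4.79 to 5.71), with 20.8% of the older UMIs from 1 cell. Each of these 5 was also called higher in the remaining chondrocytes, where Serpina3n was at 77.5 and 677 CPM, C4b at 46.9 and 432 and Chil1 at 222 and 1119.

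The share of cells holding these transcripts was higher too. After thinning to 2000 UMIs, Serpina3n was seen in 9.64% (5.91 to 14.7) of 197 remaining chondrocytes at 3 months and in 38.6% (31.1 to 46.4) of 166 at 12 to 16 months, and C4b in 5.58% (2.82 to 9.77) and 34.3% (27.2 to 42.1). None of the 42 and 28 immune cells held a Serpina3n UMI, and 1 and 0 held a C4b UMI. C3 and Lcn2 were less clean, since 15 of 42 and 8 of 28 immune cells held a C3 UMI and 12 and 9 held an Lcn2 UMI. Immune cells themselves can express both genes.

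For 4 of these 5 genes there was a promoter in the RefSeq table, and the 250 bases before each start are shown (GRCm38.p6, 5′ to 3′ on the gene's strand) since they are where factors of the acute-phase response are commonly sought. Both strands were searched for TTCNNNGAA, a STAT motif, for TTGCNNAA, a C/EBP motif, and for the NF-kappaB motif. Capitals mark a match.
Serpina3n, chr12:104406458-104406707, plus strand: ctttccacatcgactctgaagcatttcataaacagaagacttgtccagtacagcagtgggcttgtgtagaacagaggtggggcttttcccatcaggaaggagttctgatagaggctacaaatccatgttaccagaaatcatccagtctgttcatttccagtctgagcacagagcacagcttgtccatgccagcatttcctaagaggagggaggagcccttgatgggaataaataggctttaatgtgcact
C3, chr17:57228137-57228386, minus strand: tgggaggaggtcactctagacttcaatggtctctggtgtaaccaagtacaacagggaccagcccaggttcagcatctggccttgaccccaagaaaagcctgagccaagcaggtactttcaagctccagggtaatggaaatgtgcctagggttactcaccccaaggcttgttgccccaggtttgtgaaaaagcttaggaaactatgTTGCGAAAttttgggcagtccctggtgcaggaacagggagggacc
Chil1, chr1:134181906-134182155, plus strand: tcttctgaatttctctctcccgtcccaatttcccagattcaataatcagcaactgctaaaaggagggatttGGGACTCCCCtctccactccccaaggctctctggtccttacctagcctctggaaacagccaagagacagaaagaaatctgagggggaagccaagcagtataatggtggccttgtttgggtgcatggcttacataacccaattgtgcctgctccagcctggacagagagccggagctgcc
Lcn2, chr2:32387740-32387989, minus strand: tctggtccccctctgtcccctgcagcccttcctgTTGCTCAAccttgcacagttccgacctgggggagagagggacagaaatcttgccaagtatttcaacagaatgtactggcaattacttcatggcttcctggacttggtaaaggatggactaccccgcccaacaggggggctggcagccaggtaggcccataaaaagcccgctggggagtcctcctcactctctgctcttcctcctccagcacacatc

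The C/EBP letters lay 45 bases before the start of C3 and 216 before that of Lcn2, and 9.56% of 32851 RefSeq promoters hold them. An NF-kappaB match lay 179 bases before the start of Chil1, and 3.90% of promoters hold one. The STAT letters were in none of the 4 windows and in 7.02% of all promoters. A match is a description of the sequence, and no match says only that these letters are not in this window.

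In the list of NF-kappaB and cytokine genes, with 20 counted, 7 were called higher and none lower, with a median of 0.55 over all chondrocytes. The higher share was 35.0%, beside 3.25% of all genes. C4b and Lcn2, grouped above after their values were seen, are members of this list. Its calls are therefore not separate from that group. Hypertrophic cells had 9 of 15 higher and none lower, with a median of 1.22. Of all 8384 genes counted in hypertrophic cells 473 (5.64%) were higher and 477 (5.69%) lower. Among the remaining chondrocytes 4 of 17 were higher and the median was 0.06, close to that of all genes. In control 4 of 21 were higher and 3 lower, with a median of -0.01. Over all chondrocytes the summed level of the list was lowest in the 3-month mutant library, at 1575 CPM, beside 2372 CPM in the older mutant and 2528 and 2967 CPM in the control libraries. In the remaining chondrocytes it was 2415 and 3171 CPM in mutant and 2664 and 3344 CPM in control, so the 3-month libraries were closer there. Cxcl1, a neutrophil chemokine, was at 9.92 and 36.7 CPM in 16 and 21 cells, and Ptgs2, the inducible prostaglandin synthase, had 41 and 90 UMIs, 42.2% of the latter from 1 cell. Of 14 interferon and antigen presentation genes 4 were higher (28.6%, beside 3.25% of all genes) and none lower, with a median of 0.53 over all chondrocytes. In the remaining ones 1 of 11 was higher, with a median of 0.20, and in control the median was 0.03. The summed level of this list was also lowest in the 3-month mutant library, at 882 CPM. It was 1459 CPM in the older mutant and 1686 and 1734 CPM in the control libraries. H2-K1, a class I heavy chain, was at 60.9 CPM in 192 cells and 152 CPM in 184 cells, 2.50-fold higher (2.17 to 2.88), and was called in the remaining chondrocytes too. H2-D1, at 151 and 306 CPM, and Ifi27, at 121 and 242 CPM, were not. Of 15 senescence and p53 target genes, with a median of 0.20, only Phlda3 was called, at 11.5 and 28.6 CPM. Cdkn1a, the p21 inhibitor of the cell cycle, was at 167 and 235 CPM, 1.40-fold (1.27 to 1.55).

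By the naming rule, the genes with the largest ratios in both sets included, beside those above, Gstp1, Tesc, Akr1b3, Pappa2, Igfbp5, Npy and Car3. Gstp1, a glutathione transferase, was at 35.8 and 183 CPM, 5.12-fold (4.35 to 6.04). Gstp1 has a near-identical copy in the mouse genome, and reads may have been split between the copies, so its level is uncertain. Tesc, tescalcin, a calcium-binding protein, was at 19.0 and 93.6 CPM, 4.93-fold higher (3.94 to 6.21), and Akr1b3, aldose reductase, at 41.9 and 212 CPM, 5.07-fold higher (4.36 to 5.90). Pappa2, a protease that frees IGF from its binding proteins, was at 8.55 CPM in 5 cells and 58.0 CPM in 27 cells, with 84.0% of the younger UMIs from 1 cell.

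Igfbp5, Npy and Car3 show how few cells can carry a large ratio. Igfbp5, an IGF-binding protein, had 0 UMIs at 3 months and 290 in 11 cells at 12 to 16 months, at least 197-fold higher against a floor of 3 counts per library, and 48.3% of its UMIs came from 1 cell. Npy, neuropeptide Y, had 0 and 220 UMIs, in 9 cells, with 81.8% from 1 cell. Car3, carbonic anhydrase 3, had 1 and 229 UMIs, the latter all from 1 cell. Of the 343 genes called higher 23 (6.71%) had over 50% of their older UMIs in 1 cell, and of the 496 called lower 3 (0.605%) had over 50% of their younger UMIs in 1 cell. The cell cycle list was of this kind. Of 12 genes 6 were called higher, with a median of 2.18, but the 120 older UMIs of Mki67 lay in 2 cells and the 150 of Top2a in 3, and in the remaining chondrocytes none of 3 counted genes was called.

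**Figure D3:**
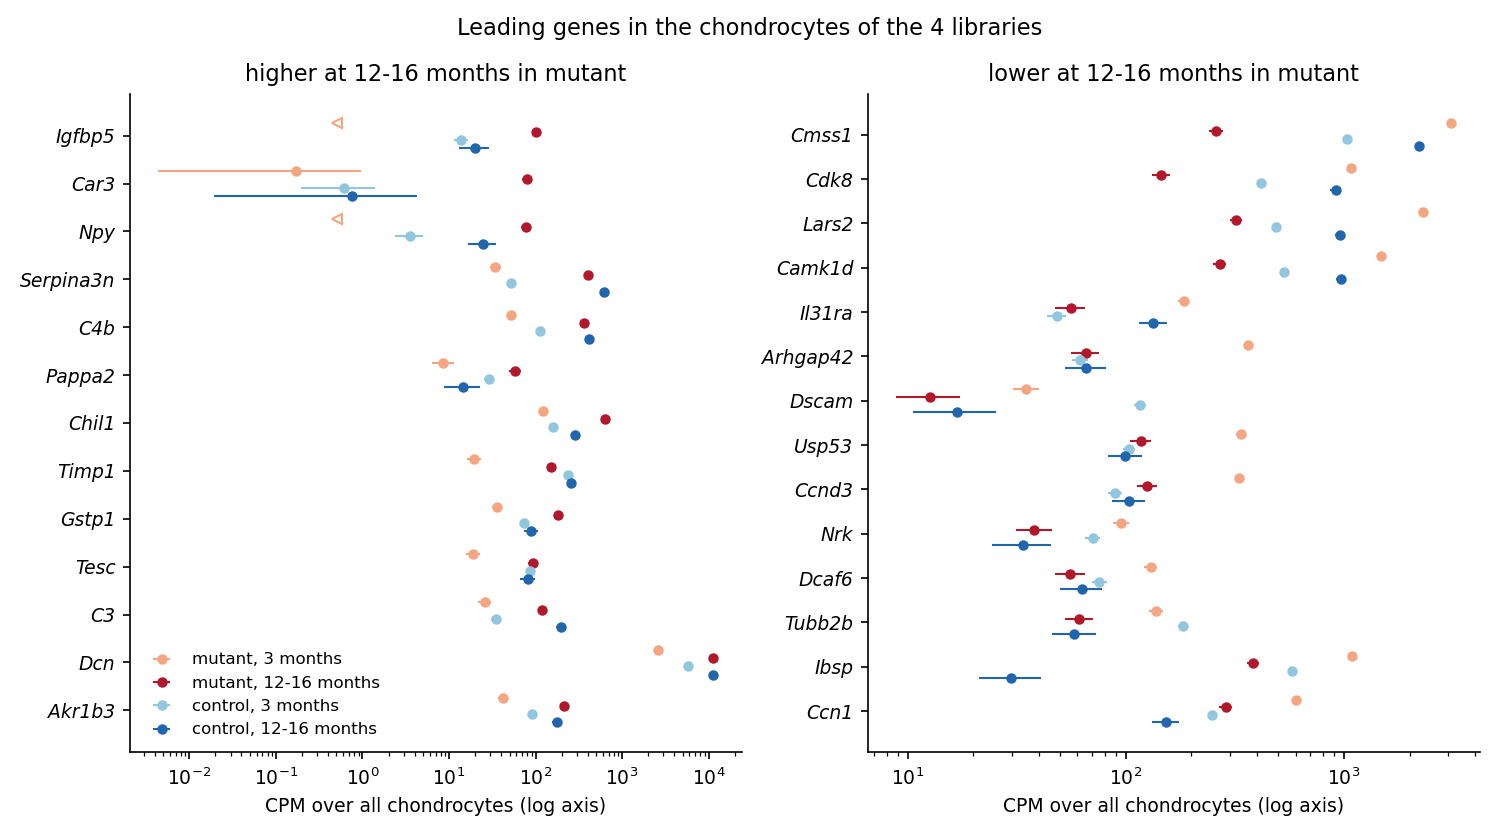
CPM over all chondrocytes (log axes) of 13 leading higher genes (left) and 14 leading lower genes (right) in the 4 libraries; points are library values, lines 95% counting intervals and open triangles a floor of 3 counts where a library had none. Serpina3n and C4b lie to the right in both older libraries, whereas Cmss1 and Cdk8 are lowest in the older mutant library.

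**Figure D4:**
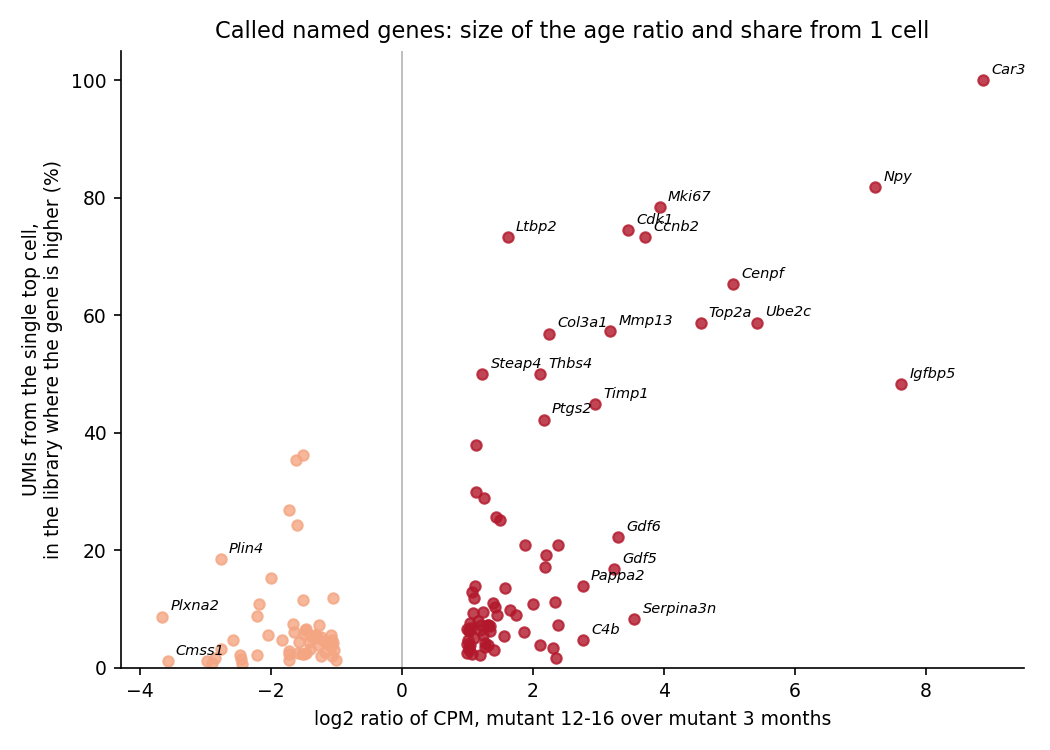
Each point is a named gene called in all mutant chondrocytes, with its log2 ratio of 12 to 16 over 3 months on the x axis and, on the y axis, the percent of its UMIs from the single top cell in the library where it is higher. Car3 (100%), Npy (81.8%) and Mki67 (78.3%) rest on few cells, and Serpina3n (8.33%) and C4b (4.66%) do not.

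Of the 14 leading lower genes shown 5 belonged to the group that is abundant in the 3-month library together with Gm42418. Cmss1 was at 3085 CPM at 3 months and 259 CPM at 12 to 16 months, 11.9-fold lower (11.1 to 12.8), Cdk8 at 1083 and 145, Lars2 at 2311 and 320, Camk1d at 1474 and 269 and Il31ra at 184 and 55.9 CPM. All 5 were lower by 3.29-fold or more. In control chondrocytes Cmss1 ran the other way, at 1036 and 2215 CPM. The part of this transcript group in the other differences was not tested. With the total taken without abundant nuclear, mitochondrial and ribosomal genes, an alternative chosen after seeing the data, 299 genes were higher and 549 lower.

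The other lower genes were Arhgap42, Dscam, Usp53, Ccnd3, Nrk, Dcaf6, Tubb2b, Ibsp and Ccn1. Arhgap42, a RHOA GTPase-activating protein, was at 362 CPM in 256 cells at 3 months and 65.3 CPM in 84 cells at 12 to 16 months, 5.55-fold lower (4.77 to 6.48), and Ccnd3, cyclin D3, at 330 CPM in 324 cells and 125 CPM in 152 cells, 2.64-fold lower (2.36 to 2.97). In both cases the older mutant value lay near the control libraries, at 61.6 and 65.7 CPM for Arhgap42 and 89.0 and 103 CPM for Ccnd3. Ccn1, a matricellular protein induced by YAP and by serum, was at 602 and 287 CPM, 2.10-fold lower (1.94 to 2.27), and Ibsp, bone sialoprotein, at 1085 CPM in 102 cells and 383 CPM in 53 cells, 2.83-fold lower (2.66 to 3.02). Dscam, a cell adhesion molecule of neurons, was at 34.9 and 12.6 CPM, in 52 and 19 cells. Tubb2b, a beta-tubulin, was at 138 and 61.1 CPM, Nrk, a kinase, at 95.1 and 38.1, Usp53, a ubiquitin protease-like protein of cell junctions, at 336 and 117 and Dcaf6, a substrate receptor of a ubiquitin ligase, at 130 and 55.5 CPM.

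In growth factor pathways single genes differed. The TGF-beta and BMP list had 7 of 42 genes higher (16.7%) and 4 lower (9.52%), beside 3.25% and 4.71% of all genes, with a median of -0.05. Its ligands Gdf5 and Gdf6, which mark joint and annulus lineages, were at 5.99 CPM in 19 cells and 56.2 CPM in 53 cells, 9.39-fold higher (6.48 to 14.0), and at 2.57 and 25.2 CPM, 9.80-fold higher (5.57 to 18.4). Gdf5 was called in the remaining chondrocytes as well, at 14.9 and 59.9 CPM. Gdf10, a further ligand, was at 58.2 and 124 CPM, and Bmp6 was lower in the remaining chondrocytes, at 421 and 185 CPM, 2.28-fold (1.98 to 2.63). Among antagonists Chrd, chordin, had 31 and 36 UMIs, 2.37-fold higher in CPM (1.43 to 3.96), and Fstl1 was at 25.0 and 4.19 CPM. The receptor Acvr1b was at 42.1 and 15.4 CPM, and Ltbp4, which stores latent TGF-beta, at 14.2 and 4.54 CPM, lower in both sets. The BMP target Id2 was at 150 CPM in 184 cells and 440 CPM in 195 cells, 2.94-fold higher (2.7 to 3.21). Its relatives Id1 and Id3, also BMP targets, went the same way under 2-fold, at 258 and 422 CPM and at 218 and 403 CPM.

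In the IGF list 2 of 8 genes were higher, Igfbp5 and Igfbp6, and 2 lower, with a median of -0.59. Igf2, a fetal growth factor, had 46 and 5 UMIs, and Irs1, which couples the receptor to PI3 kinase, was at 215 and 76.9 CPM, 2.80-fold lower (2.43 to 3.25). In the remaining chondrocytes 1 of 7 counted IGF genes was higher and none lower, with a median of -0.39. Of 21 WNT genes 1 was higher, Wif1, a secreted WNT inhibitor, at 231 CPM in 197 cells and 496 CPM in 153 cells, 2.15-fold (2.00 to 2.32), and 2 were lower, Wnt11 and Wnt5a, with a median of -0.35. Frzb, another secreted inhibitor, was called higher in the remaining chondrocytes alone, at 57.8 and 139 CPM. It was the only 1 of 12 counted WNT genes called there, with a median of -0.33. Of 9 hedgehog and PTHrP genes none was higher and 2 lower, the hedgehog effectors Gli2, at 164 and 75.8 CPM, and Gli3, at 197 and 92.9 CPM, with a median of -0.60. Neither was called in the remaining chondrocytes. None of 6 FGF genes was called, with a median of 0.26.

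ERK feedback genes are induced by the pathway that neurofibromin restrains. Of 14 counted, 2 were higher and none lower, with a median of -0.15. Phlda1 was at 206 and 416 CPM, 2.02-fold (1.86 to 2.19), and Ccnd1, cyclin D1, at 28.6 and 72.3 CPM in 65 and 47 cells. The classical feedback inhibitors were not higher: Dusp6 had 41 and 18 UMIs, a ratio of 0.896 (0.485 to 1.6), and Spred1 was at 111 and 82.1 CPM. In the remaining chondrocytes none of 12 was higher and Spry2 was lower, at 74.9 CPM in 75 cells and 25.9 CPM in 28 cells, 2.89-fold (2.00 to 4.29), with a median of -0.39. Among 32 immediate early and stress genes, which dissociation also induces, none was higher and 2 lower. Fos was at 3305 and 3362 CPM, and Nr4a1 at 329 and 161 CPM, 2.04-fold lower (1.84 to 2.26). The median of that list was -0.01.

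The summed level of the 74 nuclear genes of oxidative phosphorylation was 9154 CPM in the 3-month mutant library, 12595 in the older mutant, and 11940 and 11240 CPM in control. The 3-month mutant library thus stood below the other 3, and it is also the one with the most of the Gm42418 transcript group, whose part in this difference was not tested. Over these 74 genes the median log2 ratio was 0.49 in all chondrocytes and 0.38 in the remaining ones, beside -0.04 for all genes, and -0.09 in control. Only 2 passed the 2-fold call: Ndufa11, a complex I subunit, at 111 CPM in 279 cells and 223 CPM in 213 cells, and Uqcrq, a complex III subunit, at 87.6 and 201 CPM, were higher and none was lower. The 13 mitochondrially encoded genes had a median of 0.15 with no call. Glycolysis and hypoxia genes had a median of 0.34 over 33 genes, with 2 higher and 1 lower, but -0.22 in the remaining chondrocytes, where none was higher and 2 were lower. Pkm, pyruvate kinase, was at 350 and 736 CPM over all chondrocytes and 1.30-fold (1.20 to 1.40) in the remaining ones. Of 18 lipid genes 6 were higher (33.3%) and 2 lower (11.1%), beside 3.25% and 4.71% of all genes, with a median of 0.42. The summed level of the 23 genes of that list was lower at the older age, at 2607 and 2082 CPM, and at 3793 and 2374 CPM in the remaining chondrocytes. The fatty acid carriers Fabp4, at 14.2 and 33.9 CPM, and Fabp5, at 31.7 and 99.9 CPM, were called in both sets, and the desaturases Scd1, at 43.1 and 129 CPM, and Scd2, at 108 and 259 CPM, over all chondrocytes only.

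Among clock and glucocorticoid genes, Dbp, Hlf, Fkbp5 and Zbtb16 were lower. Of 18 clock genes 2 were lower (11.1%, beside 4.71% of all genes) and none higher, with a median of -0.19. Dbp was at 84.9 CPM in 134 cells and 30.0 CPM in 41 cells, 2.82-fold lower (2.24 to 3.59), and 2.83-fold lower (1.69 to 5.0) in the remaining chondrocytes, and Hlf was at 27.5 and 8.73 CPM. The time of day of the dissection is not given in the sources used here. Of 11 glucocorticoid targets 3 were lower and 2 higher, with a median of -0.37. Fkbp5, a co-chaperone of the receptor, was at 330 CPM in 254 cells and 71.3 CPM in 89 cells, 4.64-fold lower (4.01 to 5.38), against 17.3 and 24.5 CPM in control, and Zbtb16 was at 391 and 119 CPM, 3.28-fold lower (2.93 to 3.69). In the remaining chondrocytes these ratios were smaller, 2.01-fold (1.56 to 2.61) and 1.70-fold (1.40 to 2.08). Mt1, a metallothionein, was higher instead, at 519 and 1206 CPM.

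In the other lists few genes were called. Of 11 mineralization and hypertrophy genes 2 were higher, Spp1, osteopontin, at 1982 and 4269 CPM, and Slc20a1, a phosphate transporter, at 79.4 and 188 CPM, and 3 lower, among them Ibsp and Phex, a regulator of phosphate, at 85.4 and 18.5 CPM. The median was -0.41. In the remaining chondrocytes 1 of 7 counted was higher and 2 lower, with a median of -0.12. Of 17 neural guidance and channel genes 2 were higher and 5 lower, with a median of -0.13, led by Plxna2, a semaphorin receptor, at 92.4 CPM in 101 cells and 7.34 CPM in 19 cells, 12.6-fold lower (8.16 to 20.5), and Sema3c, a semaphorin, at 193 and 54.1 CPM. These are values over all chondrocytes. In the remaining ones 1 of 11 counted was higher and 2 lower, with a median of -0.51 and a lowest log2 ratio of -1.57. Of 19 integrin and adhesion genes 1 was higher and 2 lower, Itga10, the type II collagen receptor of chondrocytes, at 242 and 120 CPM, and Ncam1, at 401 and 166 CPM. Their median was 0.03. The shares called, 5.26% and 10.5%, stood beside 3.25% and 4.71% of all genes. In the remaining chondrocytes none of 18 counted integrin and adhesion genes was called, with a median of -0.23. Of 7 disc and notochord genes Car3 alone was called, with a median of 0.46. None of 23 Hox genes was called, with a median of 0.13, and none of 6 nuclear RNAs, with a median of -0.63. The 25 lysosome genes had a median of 0.16. Of 25 antioxidant genes 1 was lower, Txnip, an inhibitor of thioredoxin, at 684 and 326 CPM, with a median of 0.31. Among 23 antioxidant genes counted in the remaining chondrocytes none was called, with a median of 0.13. Of 93 ribosomal protein genes 3 were higher and 4 lower, with a median of 0.03.

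**Figure D5:**
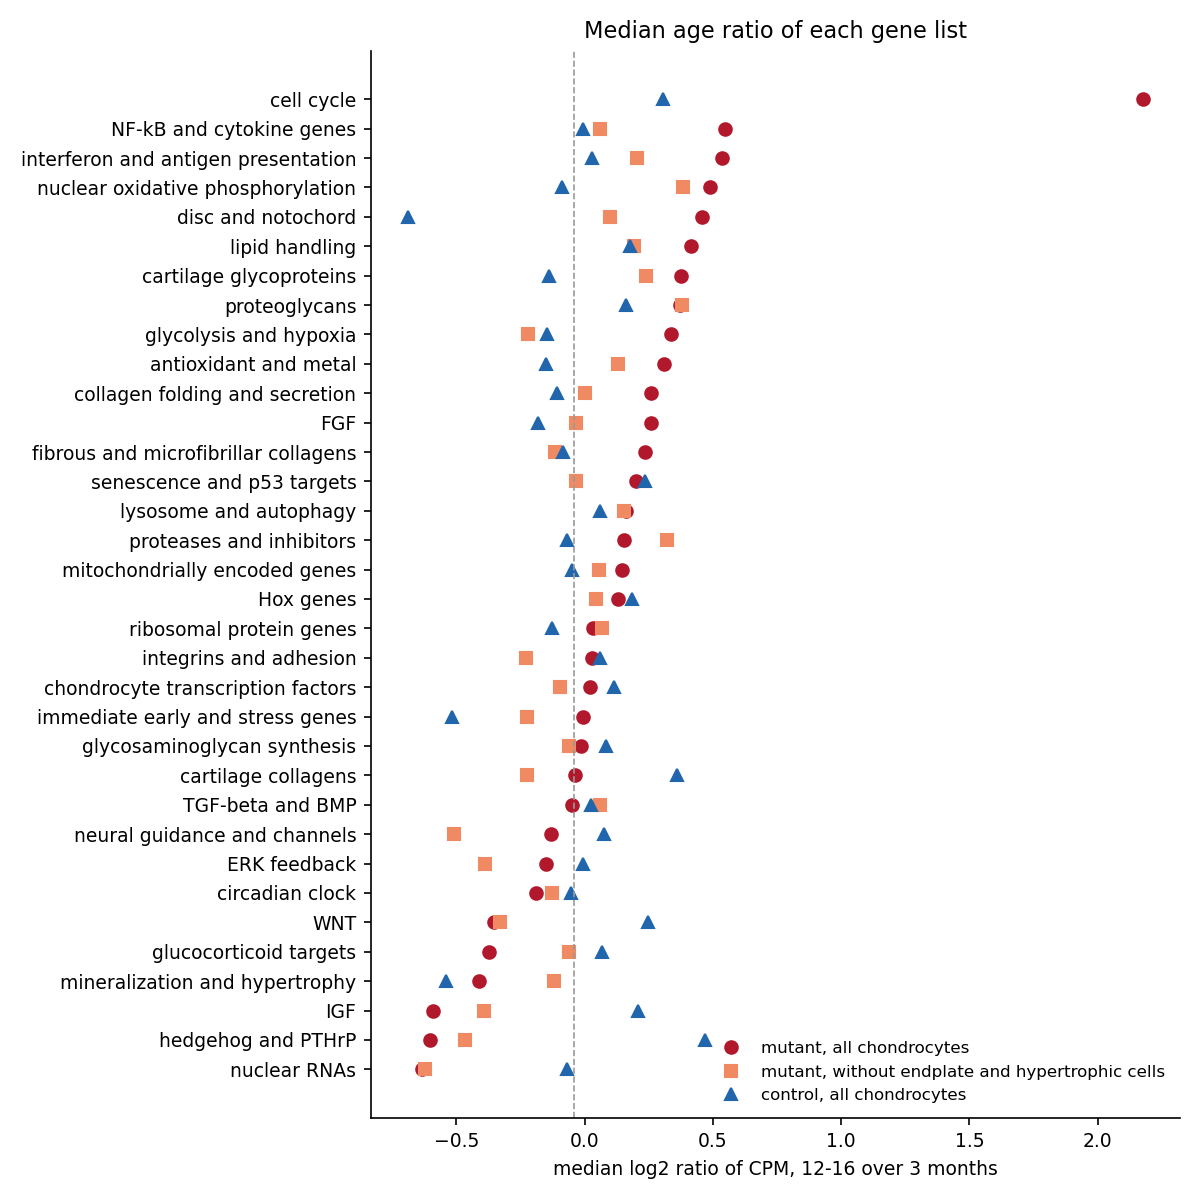
Median log2 ratio of CPM, 12 to 16 over 3 months, of each gene list in all mutant chondrocytes (circles), in mutant chondrocytes without endplate and hypertrophic cells (squares) and in all control chondrocytes (triangles); the dashed line is the median of all genes in mutant chondrocytes, -0.04. Nuclear oxidative phosphorylation lies to the right in both mutant sets (0.49 and 0.38) and at -0.09 in control, and the nuclear RNAs lie to the left (-0.63 and -0.62).

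In the endplate cells taken alone, 142 and 38 cells, Comp, Matn3, Fn1 and many glycolysis genes were higher at the older age and Dcn was lower. Of 7892 genes 418 (5.3%) were higher and 522 (6.61%) lower at 12 to 16 months. Their median depth was 17605.5 and 19527 UMIs. These cells were not alike in makeup, as 90 of the 142 at 3 months and 31 of the 38 at 12 to 16 months also met the hypertrophic rule, and the part of this in the ratios was not tested. Kcnd2, an endplate marker that the rule did not use, was at 341 and 1054 CPM. Comp was at 1847 and 6061 CPM, 3.28-fold higher (3.15 to 3.42), Matn3 at 411 and 1444 CPM, 3.52-fold higher (3.23 to 3.82), and Fn1 at 2200 and 7283 CPM, 3.31-fold higher (3.19 to 3.43). Dcn ran the other way, at 459 and 140 CPM, as did Lum, at 161 and 57.5 CPM. C4b was higher in these cells too, at 66.8 and 235 CPM, while Serpina3n and C3 were at or near 0, with 0.359 and 6.69 CPM and 0 and 0 CPM. Of 26 glycolysis and hypoxia genes 15 were higher and 1 lower, with a median of 1.12, beside -0.02 for all genes. Hypertrophic cells, many of which are also endplate cells, had 17 of 28 higher, 2 lower and a median of 1.15, beside 5.64% higher and 5.69% lower of all genes. Pkm was at 124 and 534 CPM, 4.29-fold higher (3.71 to 4.97), and Ldha, lactate dehydrogenase, at 99.9 and 454 CPM. Lipid genes had a median of 1.26, with 7 of 13 higher and 2 lower, and 10 of 74 oxidative phosphorylation genes were higher, with a median of 0.56. Of 10 glucocorticoid targets 6 were lower and none higher, with a median of -1.52: Fkbp5 was at 488 and 87.0 CPM. ERK feedback genes had a median of -0.85, with 1 of 12 higher and 4 lower. The older values rest on 38 cells.

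The control libraries, which share no library with the mutant ones, give the same age span in animals with intact Nf1. In control chondrocytes 502 of 10567 genes (4.75%) were higher at 12 to 16 months and 300 (2.84%) lower, and in those without endplate and hypertrophic cells 318 of 9652 (3.29%) and 272 (2.82%). The older control values rest on 89 cells, 68 of them in the second set. Of 311 genes higher in mutant and counted in control, 62 (19.9%) were also higher in control and 23 (7.40%) lower. Of 362 genes lower in mutant, 62 (17.1%) were higher in control and 37 (10.2%) lower. All 4 shares, in the same and in the opposite direction, lay above those of all genes in control, 4.75% higher and 2.84% lower. Of the 311 genes 193 had a control ratio above 1 and 118 below. Of the 362 genes lower in mutant 208 had one above 1 and 154 below. Without endplate and hypertrophic cells it was 48 of 165 (29.1%) higher and 4 lower, against 30 of 183 (16.4%) of the mutant-lower genes that were also lower and 13 higher. Serpina3n was at 52.5 and 622 CPM in control, C3 at 34.6 and 195, C4b at 114 and 411 and Lcn2 at 19.5 and 198 CPM, so all 4 were called higher there as well. Chil1, grouped with them above, is left out of this comparison. The mutant log2 ratio minus the control one was -0.02 (-0.29 to 0.26) for Serpina3n, -0.30 (-0.67 to 0.07) for C3, 0.92 (0.68 to 1.16) for C4b and -1.91 (-2.26 to -1.57) for Lcn2, with intervals of counting error. Dcn, at 5722 and 11341 CPM, and Fn1, at 3536 and 8171 CPM, had older values near those of mutant and younger values above them, and their ratios were 1.98 (1.95 to 2.02) and 2.31 (2.26 to 2.36). These were levels over all chondrocytes. Endplate cells, low in Dcn in mutant, made up 37.7% of these at 3 months in mutant and 5.34% in control. The part of this difference in makeup was not tested. Fmod was at 251 and 522 CPM and Aspn at 81.7 and 216 CPM. Some of the other mutant differences had no counterpart: Id2 was at 347 and 361 CPM in control, Tesc at 86.6 and 81.0, Fkbp5 at 17.3 and 24.5 and Thbs1 at 371 and 500 CPM. For these 4 genes both control values over all chondrocytes lay nearer the older mutant value than the younger one, so that the 3-month mutant library stood apart. That library also had the largest share of endplate cells, and the part of this makeup in the values was not tested. Whether such values come from the genotype, the animals, the library or the makeup of the cells cannot be told apart with 1 library for each.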

How the data were processed

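Single-cell RNA-seq of 4 libraries, 1 for each genotype and age, was analysed. The deposited files hold raw UMI counts per gene and cell, which the authors made with Cell Ranger (8.0.0 per the file headers) on mm10; background correction and clustering that followed in their study were not repeated. Cells were filtered and chosen as given in the report, and UMIs summed per library with Python 3.11.15, numpy 2.4.6 and scipy 1.17.1. CPM have exact Poisson intervals, ratios conditional binomial intervals and shares Clopper-Pearson intervals, all at 95%. Bounds against a count of 0 used a floor of 3 counts, and pairs of counts at or below that floor got no ratio. The steps were checked on simulated counts. Those were drawn as independent UMIs, so the check does not cover genes whose UMIs cluster in few cells. The members and all 33 gene lists were chosen with earlier results of these data known, and support nothing by themselves. Genes named were members of those lists, checks of genotype and sex, and the 15 highest and 15 lowest by the smaller ratio of both chondrocyte sets, called in both and with 200 or more UMIs in the remaining chondrocytes, leaving out genes of the cell rule, mitochondrial, ribosomal, hemoglobin, immunoglobulin, sex-linked and unnamed genes. Doublets were kept; Scrublet (scanpy 1.11.5) called 4 of 484 and 4 of 421 mutant cells. The alternatives were edgeR (4.0.16) TMM factors, other minimums, weights, thinning, cell rules, doublets left out and a gene's top cell left out. Promoters came from RefSeq, where C4b was not matched. The rule also named 3 genes that are not reported here.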

Additional observations from a re-analysis of the deposited data

Results flagged for a closer look

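Over all chondrocytes 23 of 311 genes called higher with age in mutant were called lower in control, and 62 of 362 called lower in mutant were called higher in control. Among all genes counted in control 2.84% were lower and 4.75% higher. The genes with opposite calls that are among the gene lists and leading genes are given here. With 1 library for each genotype and age the difference between genotypes was not tested, and no explanation was weighed. Of them 3 belong to the transcript group that is abundant in the 3-month mutant library: the log2 ratio of 12 to 16 over 3 months was -3.57 in mutant and 1.10 in control for Cmss1, -2.90 and 1.14 for Cdk8 and -1.72 and 1.47 for Il31ra. Among proteases Mmp2 was at -2.76 in mutant and 2.33 in control, and Mmp13 at 3.18 and -5.37. Among cytokines and growth factors Cxcl1 was at 1.89 and -3.19, Cxcl12 at 1.08 and -2.76 and Inhba, an activin subunit, at 1.5 and -1.17, while Chrdl1, a BMP antagonist, was at -1.42 and 1.78. Spp1 was at 1.11 and -1.12. The glucose transporter gene Slc2a3 was at -1.32 and 1.10, and the lipocalin gene Apod at -1.99 and 1.01. Of adhesion and neural genes Ncam1 was at -1.27 and 1.44, Sema3e at 1.13 and -2.23 and Dlg2 at -1.31 and 1.55. In the 3-month control library 1 cell held 98.1% of the Mmp13 UMIs and 90.4% of those of Cxcl12.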

How the results depend on the processing

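No paired analysis was possible because there was 1 library for each genotype and age, and for the same reason no library could be left out. Over all chondrocytes the count of higher genes was 343 and became 829 with no minimum of UMIs, 129 with a minimum of 200, 123 with cells thinned to 2000 UMIs and 1044 at 1.5-fold, and the count of lower genes, 496, became 208 with a minimum of 200, 257 after thinning and 1239 at 1.5-fold. In the remaining chondrocytes the higher genes, 172, became 539, 54, 67 and 545 in that order, and the lower genes, 187, became 359, 54, 82 and 655. A minimum, a fold and thinning change by construction how many genes can be called. The share of higher genes among those called went from 40.9% to 53.2% with no minimum, and from 47.9% to 60.0% in the remaining chondrocytes. The other alternatives, TMM factors, equal weight per cell, other Acan and mitochondrial limits, doublets left out, the top cell left out, and 2 chosen after seeing the data, only cells with an Xist UMI and a total without abundant nuclear, mitochondrial and ribosomal genes, kept each count within 1.5 times. Thinning moved the share of chondrocytes among kept cells to 61.1% and 46.7%, that of endplate cells to 15.9% and 2.09% and that of hypertrophic cells to 15.9% and 12.0%, and an Acan minimum of 10 moved the older chondrocyte share to 52.0%.

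Of 1718 values of 135 named genes called over all chondrocytes, under 13 alternatives, 22, from 18 genes, changed sign. Of 233 values of 18 named genes called in the remaining chondrocytes only, 21 did, and of 495 values of 33 list medians, under 15 alternatives, 43, from 16 lists. The glycolysis median of 0.34 and that of fibrous collagens, 0.23, became -0.22 and -0.12 without endplate and hypertrophic cells, the lysosome median became -0.20 in endplate cells, and that of the glucocorticoid targets became 0.095 after thinning. Beyond which cells or UMIs were counted, the cause was not tested. In the values that follow, parentheses give the UMIs over both libraries, and no minimum of UMIs was applied. In endplate cells alone the log2 ratio was -0.69 for Tesc (7), -1.71 for Dcn (1382), 0.31 for Dscam (12), 0.31 for Matn1 (28), -1.37 for Cilp2 (85), -0.47 for Clu (191), -0.69 for Ltbp2 (14), 0.022 for Wnt5a (42), -0.037 for Slc20a1 (270) and -3.34 for Mt1 (232). In hypertrophic cells alone it was -1.32 for Ltbp2 (48), -1.17 for Fabp4 (11), 0.55 for Apod (170) and -0.59 for Cdh13 (8). Without endplate and hypertrophic cells it was 1.76 for Adamts12 (30), -0.33 for Fads2 (25), -0.57 for Ccnb2 (7) and 0.76 for Sema5a (22). With an Acan minimum of 1 it was -3.04 for Cxcl12 (551), after thinning -0.60 for Ltbp2 (13) and -0.32 for Fads2 (20), and in cells with an Xist UMI -0.32 for Ltbp2 (67). Values on few UMIs carry a wide counting error. Depth limits low genes most, and in the calls a gene with fewer than 50 UMIs over both libraries was not counted.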
